A study of Mus musculus with 20 samples.

Results

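Toll-like receptors and the proteins that help them bind their ligands were followed through every microglia library of the study. The members are the 10 genes Tlr1, Tlr2, Tlr3, Tlr4, Tlr6, Tlr7, Tlr9, Cd14, Cd180 and Ly86, of 21315 different gene symbols listed. They were picked by gene symbol, with earlier results of these data known. All 10 were above 0 in all 20 libraries, and each passed the filter on low values in every comparison. The libraries are RNA of CD45mid CD11b+ microglia sorted after papain digestion from brains of C57BL/6 mice, 9 months old. Of these, 6 libraries hold microglia sorted as C3aR-positive by a Td-tomato reporter placed in C3ar1, the gene of the complement C3a receptor, with 3 from WT and 3 from APP-KI mice of the reporter line. The other 14 hold all sorted microglia, with 3 from WT, 3 from C3aRKO, 3 from APP-KI and 5 from APP-KI;C3aRKO mice. APP-KI mice carry a humanized App allele with the Swedish, Iberian and Arctic mutations at the mouse locus and form amyloid plaques. C3aRKO mice lack C3ar1 throughout the body, so that in them the loss of the receptor is not limited to microglia. Mice of both sexes were used. The C3aRKO line had been backcrossed to C57BL/6J and gave the genotypes of the 14 libraries as littermates, and the reporter line carries floxed C3ar1. Cells were taken from dissected brain tissue and not by their distance from plaques. The labels number the libraries of a condition as replicates without naming the animals, and a p-value then measures only the spread between these libraries.

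Toll-like receptors are membrane proteins of innate immunity that bind microbial molecules and molecules released by damaged tissue. Tlr1, Tlr2, Tlr4 and Tlr6 sit at the cell surface, where Tlr2 pairs with Tlr1 or Tlr6 to bind lipopeptides and Tlr4 binds lipopolysaccharide, which Cd14 hands over to it. Tlr3, Tlr7 and Tlr9 sit in endosomes and bind double-stranded RNA, single-stranded RNA and unmethylated CpG DNA. Cd180, a relative of Tlr4, and Ly86, its secreted partner also called MD-1, form a surface complex that is known to restrain Tlr4 signaling in macrophages. In the brain, microglia are the main cells that carry these receptors, and Tlr2, Tlr4 and Cd14 are known to bind fibrillar amyloid β.

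The deposited values are each gene's read count divided by the 75th percentile of its library's counts, so they are not per gene length. They were multiplied by the constant 35.2, near the usual size of depth-normalized counts, and are called scaled values below. Reads per library ran from 13939559 to 30388941 in the C3aR-positive libraries and from 42239056 to 76608464 in the others, and the members had between 231 reads, for Tlr6, and 72426 reads, for Ly86. In 4 libraries, APP-KI replicate 4, C3aRKO replicates 1 and 2 and APP-KI;C3aRKO replicate 1, between 8076 and 8939 of the listed symbols were at 0, and in APP-KI replicate 5 only 107 were. The 15 others had between 3876 and 6438 at 0. Results in the 14 libraries of all sorted microglia are therefore given with and without the 4 libraries, an alternative chosen after the data were seen. C3ar1 was at 39.9 to 80.4 in the 8 libraries of the knockout genotypes and at 165 to 388 in the 6 other libraries of all sorted microglia. In the C3aR-positive libraries it was at 201 to 383 in APP-KI but at 37.6 to 81.2 in WT, so the libraries labelled WT and C3aR-positive lay at the level of the knockouts and go against their label for this gene. All 8 microglia markers, among them P2ry12, Tmem119 and Cx3cr1, were above 0 in every condition.

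The promoters below show the members that moved farthest in C3aR-positive APP-KI microglia, Tlr2 upwards and Tlr9 downwards, and the partners Cd180 and Ly86, which rose together. Each sequence is taken from RefSeq on GRCm38.p6, runs 5′ to 3′ on the strand of the gene and spans 250 bases before to 50 bases after the annotated start. Of the 10 members, 7 had such a sequence, and Tlr4, Tlr7 and Cd14 had none in the table. Capitals mark matches to NF-kappaB (by its consensus), AP-1 (TGANTCA), PU.1 (GAGGAAGT) or the interferon-stimulated response element ISRE (GAAA, any 2 bases, GAAA), searched on both strands.
Tlr2, chr3:83841559-83841858, minus strand: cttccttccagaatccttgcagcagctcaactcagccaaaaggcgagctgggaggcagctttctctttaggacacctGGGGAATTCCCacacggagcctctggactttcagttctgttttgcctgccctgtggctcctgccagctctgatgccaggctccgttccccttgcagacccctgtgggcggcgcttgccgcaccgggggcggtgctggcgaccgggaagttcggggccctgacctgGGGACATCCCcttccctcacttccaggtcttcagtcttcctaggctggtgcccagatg
Tlr9, chr9:106222348-106222647, plus strand: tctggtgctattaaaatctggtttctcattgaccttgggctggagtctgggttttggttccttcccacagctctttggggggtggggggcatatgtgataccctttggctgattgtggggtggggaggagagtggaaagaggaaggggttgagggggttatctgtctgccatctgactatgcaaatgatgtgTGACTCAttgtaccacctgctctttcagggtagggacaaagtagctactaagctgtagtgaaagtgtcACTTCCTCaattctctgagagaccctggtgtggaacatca
Cd180, chr13:102693297-102693596, plus strand: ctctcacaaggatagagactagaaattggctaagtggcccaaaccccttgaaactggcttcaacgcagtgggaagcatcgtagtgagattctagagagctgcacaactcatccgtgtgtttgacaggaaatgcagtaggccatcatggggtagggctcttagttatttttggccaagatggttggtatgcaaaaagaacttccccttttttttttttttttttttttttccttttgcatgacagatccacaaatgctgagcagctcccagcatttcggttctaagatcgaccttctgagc
Ly86, chr13:37345095-37345394, plus strand: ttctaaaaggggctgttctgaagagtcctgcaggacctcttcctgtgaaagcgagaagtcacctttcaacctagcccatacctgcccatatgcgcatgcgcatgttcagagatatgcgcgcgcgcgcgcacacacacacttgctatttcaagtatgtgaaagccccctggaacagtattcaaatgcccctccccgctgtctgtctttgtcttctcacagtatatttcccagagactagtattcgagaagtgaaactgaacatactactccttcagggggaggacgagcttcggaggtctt
The Tlr2 promoter held NF-kappaB letters at 2 places. At the upstream place, bases -173 to -163 from the start, GGGGAATTCC and GGGAATTCCC overlap, and at the other, bases -8 to 1, it reads GGGACATCCC. In the Tlr9 promoter AP-1 letters lay at bases -58 to -52 and PU.1 letters, on the opposite strand, at bases 10 to 17. Neither Cd180 nor Ly86 had any of the 4 motifs in this window. Among the other members, Tlr3 had an NF-kappaB match, Tlr1 a PU.1 match and Tlr6 a pair of overlapping ISRE matches. Tlr1, Tlr6 and Cd180 each had 2 annotated starts, and the matches of Tlr1 and Tlr6 lay at 1 of them only. Of Cd180, 1 start is printed above, and the other had no match either. Of all 32851 promoters of the table, 8.46% held the NF-kappaB consensus, 7.81% AP-1, 3.2% PU.1 and 3.44% ISRE. The matches describe letters only. NF-kappaB and AP-1 are transcription factors activated by Toll-like receptors themselves, and PU.1 is the factor that specifies macrophages and microglia.

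On the GRCm38 annotation (GENCODE M21) every member is a protein-coding gene. Tlr2 lies at chr3:83836272-83841767, Tlr4 at chr4:66827584-66930284, Tlr3 at chr8:45395665-45411080, Tlr9 at chr9:106222598-106226883 and Tlr7 at chrX:167304929-167330558. Cd14 lies at chr18:36725067-36726798, Ly86 at chr13:37345208-37419036 and Cd180 at chr13:102693558-102739629. Tlr1, at chr5:64924679-64933563, and Tlr6, at chr5:64952031-64960097, are neighbours 18467 bases apart on the same strand. Their exons share 454 runs of 50 bases, 13.6% of those of Tlr1 and 12.3% of those of Tlr6, so reads from these stretches could count for either. Cd180 overlaps Mast4 on the other strand and Tlr3 overlaps Gm45542. The strand setting of the counting is not given in the sources used here, so reads of these overlaps cannot be told apart.

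Per kilobase of exon, Ly86 and Cd14 were the most abundant members and Tlr3, Tlr6 and Tlr1 the least abundant in WT microglia. In all sorted WT microglia, scaled values per kb were 166 ± 7.74 for Ly86 (SD, n = 3) and 146 ± 22.9 for Cd14. Next came Tlr7 at 62.9 ± 9.38, Tlr9 at 61.6 ± 5.55, Cd180 at 51.4 ± 4.81 and Tlr2 at 46.0 ± 7.11, each within the summed SDs of the next. Tlr4 followed at 19.4 ± 1.89, Tlr3 at 12.2 ± 0.854, and Tlr6 at 10.1 ± 1.05 and Tlr1 at 9.96 ± 1.40 were within each other's spread. The order was the same down to Tlr4 in WT C3aR-positive cells, where Tlr2 was at 27.6 ± 4.06 per kb. In APP-KI C3aR-positive cells Cd180, at 89.8 ± 17.7, and Tlr2, at 78.0 ± 17.9, stood next after Ly86 and Cd14, above Tlr7 at 52.9 ± 7.23 and Tlr9 at 31.7 ± 1.34. All sorted APP-KI cells had the same order of all 10 members, with Cd180 at 71.5 ± 16.9 per kb, Tlr2 at 60.9 ± 17.6, Tlr7 at 50.1 ± 16.9 and Tlr9 at 36.1 ± 18.1, each within the summed SDs of the next. These are levels over gene length, whereas the values that follow are scaled values per gene.

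**Figure D1:**
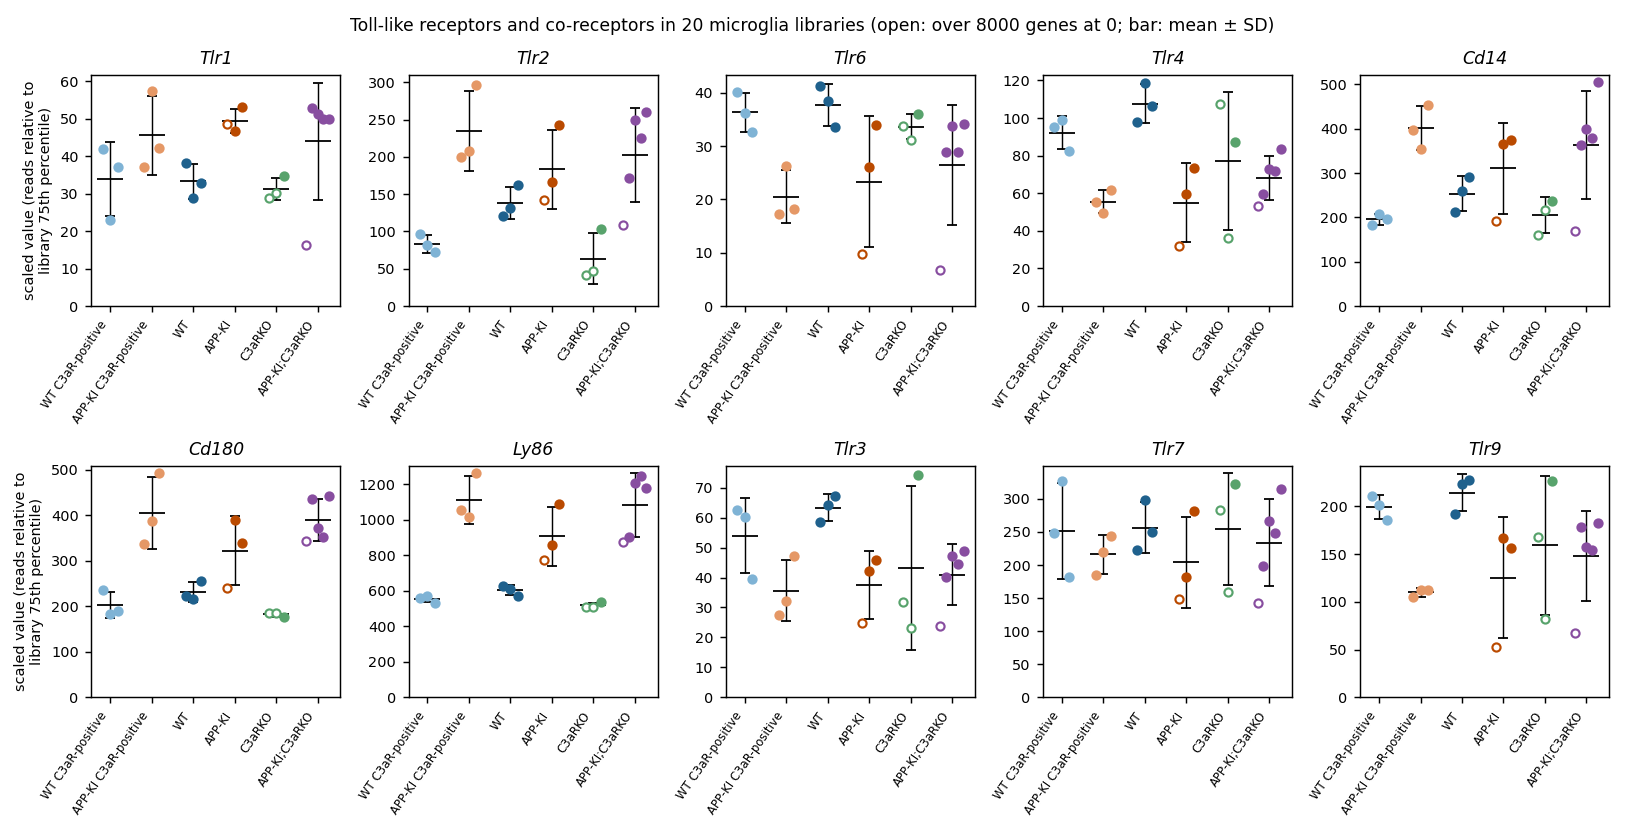
Scaled values (reads relative to the library's 75th percentile, y axis from 0) of the 10 genes in 20 libraries by condition, 1 point per library, with mean ± SD. Open points are the 4 libraries with over 8000 genes at 0, among them APP-KI;C3aRKO replicate 1, where Tlr6 was at 6.79; Ly86 lies higher in every APP-KI and APP-KI;C3aRKO library, at 772 or more, than in any other library.

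APP-KI was compared with WT in C3aR-positive microglia to ask which receptors differ in the cells labelled as carrying the C3a receptor in a brain with plaques. Tlr2, Cd14, Cd180 and Ly86 rose and Tlr4, Tlr6 and Tlr9 fell in APP-KI, while Tlr1, Tlr3 and Tlr7 did not pass the test. The test was limma on log2(scaled value + 1) with Benjamini-Hochberg adjustment over all 12306 genes tested and a threshold of 0.05. By this rule 4 of the 10 members were higher and 3 lower, against 22.7% of all genes called, 13% higher and 9.71% lower. The groups of 3 libraries did not overlap for these 7 members, as was the case for 43.5% of all genes. The members' median log2 difference was 0.12 and that of all genes -0.17. With library sizes set by the median ratio instead, the median of all genes was -0.04 and calls over all genes split 1830 higher to 643 lower in place of 1600 to 1195. For Tlr2, Tlr4 and Tlr9 the change is therefore also given relative to the median of all genes.

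Tlr2, the receptor of lipopeptides, had scaled values of 96.3, 81.2 and 72.1 in the WT C3aR-positive libraries and 199.8, 208 and 297 in APP-KI. The lowest APP-KI library was above the highest WT library. In log2 the fold change was 1.47 (SE 0.17, limma adjusted p = 0.000415), or 1.64 relative to the median gene. Its partner Tlr1 was at 41.9, 22.9 and 37.1 in WT and 37.2, 57.5 and 42.2 in APP-KI. These groups overlapped, with a log2 fold change of 0.43 (95% interval -0.14 to 1.00, limma adjusted p = 0.239). The other partner, Tlr6, went the opposite way to Tlr2, from 40.1, 36.2 and 32.7 in WT to 17.3, 26.2 and 18.2 in APP-KI. All 3 APP-KI libraries were below all WT ones, and the log2 fold change was -0.81 (SE 0.22, limma adjusted p = 0.0286). This call was lost with median ratio scaling (adjusted p = 0.0562) and when any 1 library other than APP-KI C3aR-positive replicate 2 was left out, at log2 fold changes of -0.88 to -0.70.

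Among the genes of lipopolysaccharide recognition the co-receptor rose while the receptor fell. Cd14 was at 183, 208 and 196 in WT and at 397, 354 and 454 in APP-KI. Every APP-KI library was above every WT library, and the log2 fold change was 1.03 (SE 0.12, limma adjusted p = 0.000472). Tlr4 was at 95.3, 99.1 and 82.3 in WT and at 55.6, 49.6 and 61.6 in APP-KI. No APP-KI library reached the WT range, and the log2 fold change was -0.72 (SE 0.14, limma adjusted p = 0.00637), or -0.55 relative to the median gene. Ly96, which encodes MD-2 and completes the complex of Tlr4, did not pass the test (log2 fold change 0.04, limma adjusted p = 0.959).

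Cd180 and its partner Ly86 rose by nearly the same amount. Cd180 had scaled values of 237, 183 and 189 in WT and 336, 386 and 492 in APP-KI, and Ly86 561, 573 and 533 in WT and 1056, 1013 and 1265 in APP-KI. For each gene the lowest APP-KI library was above the highest WT library. Cd180 had a log2 fold change of 0.98 (SE 0.16, limma adjusted p = 0.00231) and Ly86 of 0.99 (SE 0.13, limma adjusted p = 0.000649).

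Of the endosomal receptors, Tlr9 was the only member past the threshold. Tlr9 was at 211, 201 and 186 in WT and at 105, 113 and 113 in APP-KI. The APP-KI libraries lay close together and below the whole WT range, with a log2 fold change of -0.85 (SE 0.11, limma adjusted p = 0.000706), or -0.68 relative to the median gene. Tlr3, the receptor of double-stranded RNA, was at 62.5, 60.1 and 39.5 in WT and at 27.6, 32.3 and 47.1 in APP-KI. Its highest APP-KI library, replicate 3, lay inside the WT range, and the log2 fold change was -0.59 (95% interval -1.14 to -0.05, limma adjusted p = 0.108). Without that library Tlr3 was called at -0.81 (adjusted p = 0.0406). Tlr7, the receptor of single-stranded RNA, was at 248, 327 and 182 in WT and at 185, 219.8 and 244 in APP-KI. All 3 APP-KI libraries lay inside the WT range, with a log2 fold change of -0.19 (95% interval -0.63 to 0.25, limma adjusted p = 0.503).

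**Figure D2:**
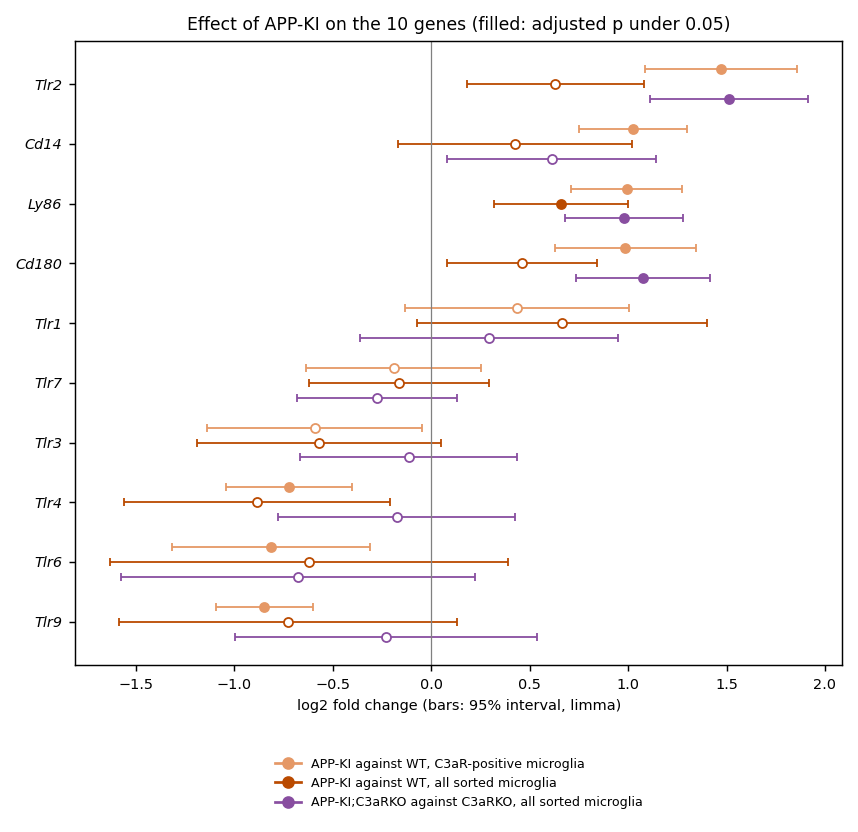
Log2 fold change of each gene (x axis) with its 95% interval from limma in the 3 comparisons of mice with APP-KI against mice without it. Filled points passed the adjusted p-value of 0.05; Tlr2, Cd180 and Ly86 were above 0 in each comparison, from 0.46 to 1.51, and Tlr7, Tlr3, Tlr4, Tlr6 and Tlr9 below 0, from -0.88 to -0.11.

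Other measures moved with the genotype in these 6 libraries. The summed level of the 8 microglia markers was 16462 to 19906 in APP-KI and 23037 to 25294 in WT, with 4 of the 8 genes lower, and none of them was at 0. The summed level of 6 markers of border macrophages, brain macrophages that also carry Toll-like receptors, was 178 to 395 in APP-KI and 472 to 694 in WT, with 5 of the 6 genes lower. Their part in the members' differences was not tested. The sum of 6 endothelial and pericyte markers was 202 to 362 in APP-KI and 60.3 to 125 in WT, where Flt1 rose (log2 fold change 3.75) and Pecam1 fell (-2.09). The sum of 6 astrocyte markers was 222 to 266 in APP-KI and 299 to 395 in WT, and that of 6 oligodendrocyte markers 157 to 168 and 86.5 to 114, while 7 neuron markers summed to 3.12 to 7.03 and 4.25 to 4.95. The part of these lists in the members' differences was not tested either. The sums of 8 markers of B and T cells, 5.16 to 24.2 in APP-KI and 16.7 to 22.3 in WT, and of 8 markers of monocytes and neutrophils, 47.3 to 200.2 and 40.7 to 437, overlapped between the genotypes. Of the T cell markers, Cd3g was at 0 in all 6 libraries and Cd3e in all APP-KI ones, and the neutrophil marker Ly6g was at 0 in all WT ones. Also overlapping was the sum of 14 genes raised by warm dissociation, at 3235 to 4361 in APP-KI and 3619 to 5280 in WT. In bulk RNA, fewer cells that express a gene and less RNA of it per cell cannot be told apart.

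The same genotypes were compared in all sorted microglia, where cells were not selected by the reporter. With every library, Ly86 alone passed the test, which called 4.14% of 12400 genes, 2.21% higher and 1.93% lower. edgeR and DESeq2 also called Ly86 alone, and the shares of all genes they called are not given here. Ly86 was at 626, 612 and 572 in WT and at 772, 857 and 1090.5 in APP-KI, without overlap. Its log2 fold change was 0.66 (SE 0.16, limma adjusted p = 0.0297). In the first series of library numbers the difference was 0.38, between 2 APP-KI libraries (replicates 4 and 5) and 1 WT library. In the second it was 0.88, between 1 APP-KI library and 2 WT libraries. The groups also did not overlap for Tlr1, higher in APP-KI, and for Tlr3, Tlr4 and Tlr9, lower in APP-KI, 5 members in all with Ly86, beside 29.3% of all genes.

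For Tlr9, Tlr4 and Cd14, APP-KI replicate 4 lay apart from the other APP-KI libraries. Tlr9 was at 52.9 in that library and at 167 and 156 in the other APP-KI libraries, against 192, 223 and 227 in WT. Tlr4 was at 32.0 there and at 59.4 and 73.2 in the others, against 97.9, 119 and 106 in WT. Cd14 was at 193 there and at 366 and 375 in the others, against 212, 259 and 291 in WT. So for Tlr9 and Tlr4 this library lay farther from WT than the other APP-KI libraries did, and for Cd14 it lay on the other side of WT. Cd180 was at 239, 389 and 339 in APP-KI and at 224, 215 and 256 in WT, and Tlr2 at 142, 166 and 243 in APP-KI and at 121, 132 and 163 in WT. For these 2 genes APP-KI replicate 4 fell within the WT range and the other APP-KI libraries above it.

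Tlr6 and Tlr7 showed no call in this comparison. Tlr6 was at 41.3, 38.4 and 33.6 in WT and at 9.82, 26.2 and 34.0 in APP-KI, a log2 fold change of -0.62 (95% interval -1.63 to 0.39, limma adjusted p = 0.758). Tlr7 was at 222, 298 and 249.8 in WT and at 149, 182 and 282 in APP-KI, a log2 fold change of -0.16 (95% interval -0.62 to 0.29, limma adjusted p = 0.927). In both genes APP-KI replicate 6 lay within the WT range and APP-KI replicate 4 was the lowest. Tlr3 was at 58.5, 64.3 and 67.2 in WT and at 24.7, 42.0 and 45.7 in APP-KI, a log2 fold change of -0.57 (95% interval -1.19 to 0.05, limma adjusted p = 0.480). All 3 APP-KI libraries of Tlr3 were below WT, with replicate 4 again the lowest.

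Without the 4 libraries with over 8000 genes at 0, 8 of the 10 members were called, 5 higher and 3 lower, against 27.9% of the 12557 genes tested, 13.2% higher and 14.7% lower (limma). The log2 fold change of Ly86 was 0.72, of Cd180 0.63, of Tlr2 0.62, of Cd14 0.59 and of Tlr1 0.56, with limma adjusted p-values of 0.00247 to 0.00934. Tlr1 and Tlr3 were called here and not in C3aR-positive cells, where their estimates were 0.43 and -0.59. In scaled values Tlr1 was at 48.8, 46.8 and 53.1 in all 3 APP-KI libraries and at 38.2, 28.8 and 33.0 in WT. The fitted changes were -0.65 in log2 for Tlr4, -0.49 for Tlr3 and -0.40 for Tlr9, with adjusted p-values of 0.000736 to 0.0216. Tlr6 (-0.31, limma adjusted p = 0.115) and Tlr7 (-0.09, limma adjusted p = 0.605) did not pass. When APP-KI replicate 5 was left out too, which left 1 APP-KI library assumed to vary like the other conditions, 6 members were called against 15.7% of all genes (7.86% higher and 7.82% lower), and Cd14 and Tlr9 were no longer among them. edgeR on the recovered reads called 8 members without the 4 libraries, and its share of all genes there is not given here.

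On the C3aRKO background, APP-KI;C3aRKO was compared with C3aRKO to ask how the members differ with APP-KI when the receptor is absent. Tlr2, Cd180 and Ly86 rose and 7 members did not pass the test, which called 6.93% of all genes, 3.95% higher and 2.98% lower. edgeR and DESeq2 called the same 3, with their shares of all genes not given here. Ly86 was at 511, 507 and 534 in C3aRKO and at 873, 903, 1204, 1247 and 1181 in APP-KI;C3aRKO, a log2 fold change of 0.98 (SE 0.14, limma adjusted p = 0.000512). Cd180 was at 185, 185 and 176 in C3aRKO and at 344, 436, 371, 352 and 441 in APP-KI;C3aRKO, a log2 fold change of 1.07 (SE 0.16, limma adjusted p = 0.000644). The C3aRKO libraries were close together for both genes, and the groups did not overlap. Tlr2 was at 41.1, 46.4 and 104 in C3aRKO and at 108, 172, 250.0, 225 and 260.2 in APP-KI;C3aRKO. These groups did not overlap but came close, since C3aRKO replicate 3 was nearly as high as APP-KI;C3aRKO replicate 1. The log2 fold change of Tlr2 was 1.51 (SE 0.19, limma adjusted p = 0.000150). Groups without overlap were found for these 3 members and for 13.7% of all genes. Within the 2 series of library numbers the differences were 1.62 and 1.23 for Tlr2, 1.06 and 1.13 for Cd180 and 0.80 and 1.18 for Ly86. The first series held 2 libraries of each condition, and the second 3 of APP-KI;C3aRKO and 1 of C3aRKO.

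Cd14 was at 160.0, 218 and 238 in C3aRKO and at 169, 364, 399, 379 and 505 in APP-KI;C3aRKO. Only replicate 1 of APP-KI;C3aRKO lay in the C3aRKO range, and the log2 fold change was 0.61 (95% interval 0.08 to 1.14, limma adjusted p = 0.176). Tlr9 was at 168, 82.5 and 227 in C3aRKO and at 67.2, 179, 157, 154 and 183 in APP-KI;C3aRKO. Tlr4 was at 108, 36.4 and 87.2 in C3aRKO and at 53.2, 59.7, 72.6, 71.6 and 83.5 in APP-KI;C3aRKO. For Tlr9 and Tlr4 C3aRKO replicate 2 was below most libraries of both conditions. Without the 4 libraries, which left C3aRKO with replicate 3 alone, assumed to vary like the other conditions, 7 members were called against 31.3% of all genes (13.2% higher and 18.2% lower). These were Tlr1, Tlr2, Cd14, Cd180 and Ly86, higher, and Tlr3 and Tlr9, lower. The calls of Tlr3 and Tlr9 rest on C3aRKO replicate 3, the highest C3aRKO library for both. Tlr3 was at 74.4 there and at 31.9 and 23.1 in the other C3aRKO libraries, against 23.9, 40.2, 47.3, 44.6 and 48.8 in APP-KI;C3aRKO. With every library the log2 fold change of Tlr3 was -0.11 (95% interval -0.66 to 0.44), and without the 4 it was -0.67.

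The remaining members overlapped between APP-KI;C3aRKO and C3aRKO. Tlr6 was at 33.7, 31.2 and 36.01 in C3aRKO and at 6.79, 28.9, 33.7, 29.0 and 34.1 in APP-KI;C3aRKO. Tlr7 was at 283, 159.6 and 322 in C3aRKO and at 142, 198, 267, 248 and 315 in APP-KI;C3aRKO, and Tlr1 at 29.0, 30.2 and 34.7 and at 16.2, 52.9, 51.3, 50.1 and 49.9. For Tlr1 the 4 libraries of APP-KI;C3aRKO other than replicate 1 were above all C3aRKO libraries, while replicate 1 was the lowest of all 20 libraries for both Tlr1 and Tlr6. The log2 fold changes were 0.29 for Tlr1, -0.68 for Tlr6 and -0.28 for Tlr7, with limma adjusted p-values of 0.396 to 0.636.

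The loss of C3ar1 was examined on each background, in comparisons that share their WT, APP-KI, C3aRKO and APP-KI;C3aRKO libraries with those above. In APP-KI mice no member differed between APP-KI;C3aRKO and APP-KI by the test, and in mice without APP-KI none differed between C3aRKO and WT, where Tlr2 had the lowest p-value. Over all genes limma called 0.00806% in each comparison, 1 of 12400 genes. At an unadjusted p under 0.05 there were 0 members in APP-KI mice, beside 38 genes higher and 109 lower of 12400. In the others there was 1 member, Tlr2, beside 123 genes higher and 221 lower. edgeR also called 0 members in each comparison, and DESeq2 called 0 in APP-KI mice and 1, Tlr2, in the others. The share of all genes that DESeq2 called there is not given here.

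In APP-KI mice the members' estimates for the knockout lay between -0.35, for Tlr1, and 0.28, for Cd180. The groups overlapped for every member, while 1.61% of all genes had groups without overlap. Tlr1 was at 16.2 in APP-KI;C3aRKO replicate 1 and at 52.9, 51.3, 50.1 and 49.9 in the 4 others, beside 48.8, 46.8 and 53.1 in APP-KI. Its log2 fold change was -0.35 (95% interval -1.01 to 0.30) with every library and 0.05 (95% interval -0.18 to 0.29) without the 4 libraries. Without them limma called 0.00796% of all genes (lower in APP-KI;C3aRKO) and no member, all 10 estimates lay between -0.003 and 0.16, and no 95% interval went below -0.24 or above 0.43. The highest of these bounds, 0.43, was that of Ly86. When APP-KI replicate 5 was left out too, the intervals ran from -0.46 to 0.57, and with every library from -1.01 to 0.93, so how large a difference they leave out depends on these libraries.

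In mice without APP-KI, Tlr2 was at 121, 132 and 163 in WT and at 41.1, 46.4 and 104 in C3aRKO. All 3 C3aRKO libraries were lower, but the 2 lowest were those with over 8000 genes at 0. In log2 the fold change was -0.97 (95% interval -1.42 to -0.52, limma adjusted p = 0.994), while DESeq2 called Tlr2 (adjusted p = 0.0338). Without the 4 libraries limma gave -0.55 (95% interval -0.87 to -0.23, adjusted p = 0.223), with 1 C3aRKO library left, and called no member beside 0.0159% of all genes (0.00796% higher and 0.00796% lower). In the first series of library numbers the difference was -1.45, between 1 WT library and 2 C3aRKO libraries that both had over 8000 genes at 0. In the second it was -0.49, between 2 WT libraries and 1 C3aRKO library. Cd180 and Ly86 also did not overlap, with Cd180 at 224, 215 and 256 in WT against 185, 185 and 176 in C3aRKO, and 3 members in all were free of overlap beside 18.5% of all genes. The log2 fold change of Cd180 was -0.33 (95% interval -0.71 to 0.05, limma adjusted p = 0.994). The knockout effect in APP-KI minus that in WT was 0.88 for Tlr2 (SE 0.29) and 0.61 for Cd180 (SE 0.25), and neither passed (limma adjusted p = 0.998). limma called 0% of genes in that comparison, and 2 members, these 2, had an unadjusted p under 0.05, beside 111 genes higher and 92 lower of 12400. edgeR and DESeq2 called 0 members there too.

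**Figure D3:**
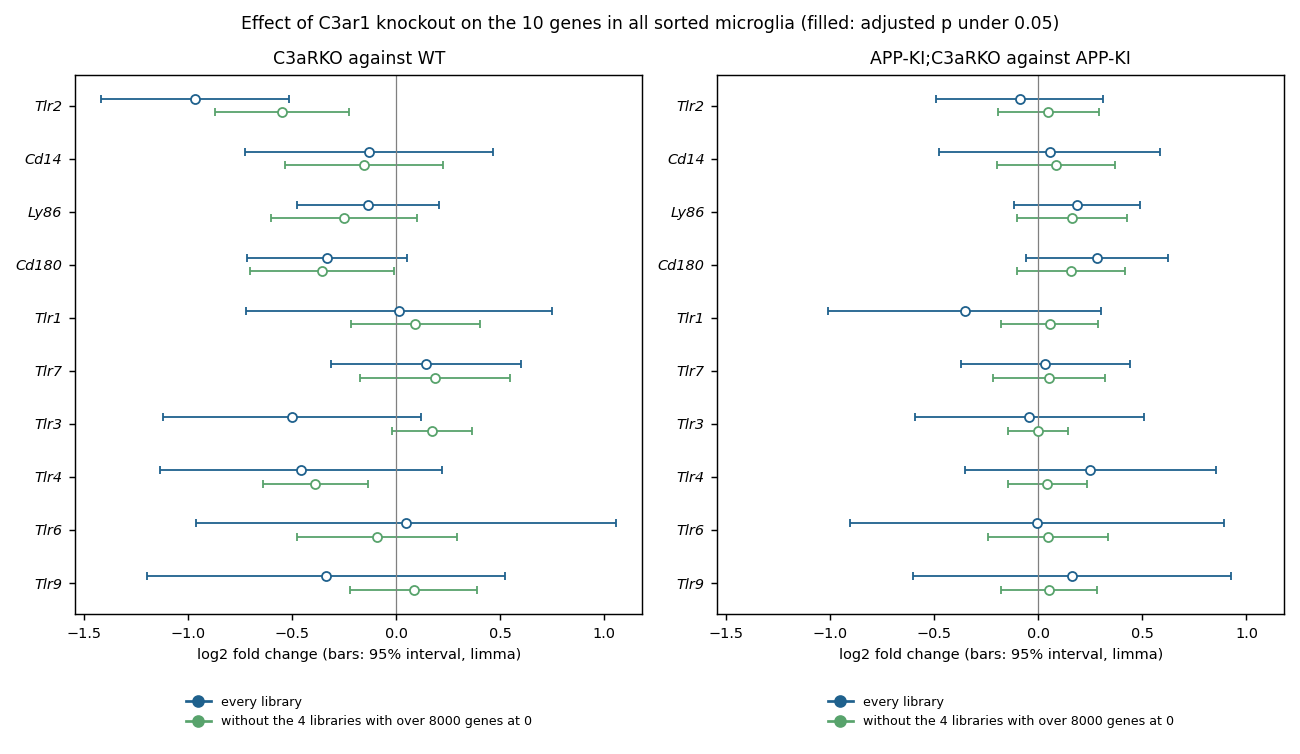
Log2 fold change of each gene (x axis) with its 95% interval from limma for C3aRKO against WT (left) and APP-KI;C3aRKO against APP-KI (right), with every library and without the 4 libraries with over 8000 genes at 0. No point is filled, since none passed the adjusted p-value; on the right the estimates without the 4 libraries lie between -0.003 and 0.16.

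C3aR-positive cells were set beside all sorted cells within each genotype. All C3aR-positive libraries came from the reporter line and from 1 series of library numbers, so the sort, the line and the series cannot be told apart, and C3ar1 was lower in the libraries labelled WT and C3aR-positive than in all sorted WT cells. No member passed the test in WT or in APP-KI, where limma called 0% of 12583 genes. Tlr2 was the lowest in p among the members in WT, at 96.3, 81.2 and 72.1 in C3aR-positive cells and 121, 132 and 163 in all sorted cells, without overlap. The difference was -0.73 in log2 (95% interval -1.18 to -0.27, limma adjusted p = 0.996). In APP-KI the same difference for Tlr2 was 0.37 (95% interval -0.09 to 0.83, limma adjusted p = 0.819). Cd14 did not overlap in WT either, so that 2 members were free of overlap there beside 23% of all genes, and 0 in APP-KI beside 6.07%. When the APP-KI effect in all sorted cells was subtracted from that in C3aR-positive cells, the difference was 1.10 for Tlr2 (95% interval 0.45 to 1.74, limma adjusted p = 0.394). For Cd14 it came to 0.78 (95% interval 0.11 to 1.46, limma adjusted p = 0.403). These 2 members had an unadjusted p under 0.05 for that difference, beside 835 genes higher and 644 lower of 12583. Between the sorts 1 member (Tlr2) had one in WT, beside 126 genes higher and 426 lower, and 0 in APP-KI, beside 200 and 457. edgeR and DESeq2 called 0 members in all 3 comparisons. That the effect of APP-KI differs between the sorts was therefore not shown for any member.

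Since Tlr1 and Tlr6 are the alternative partners of Tlr2, their levels per kb were set against each other in each library, a ratio chosen after the values were seen and given without a test. In the libraries without APP-KI it was 0.706 to 1.26 in WT C3aR-positive, 0.835 to 1.09 in WT and 0.956 to 1.08 in C3aRKO. In the libraries with APP-KI it was 2.40 to 2.59 in C3aR-positive, 1.74 to 5.53 in APP-KI and 1.63 to 2.66 in APP-KI;C3aRKO. Every library with APP-KI thus had a ratio above every library without it, and the 2 highest, 5.53 and 2.66, were libraries with over 8000 genes at 0. The share of other gene pairs that separate the libraries in this way was not computed. The part of the stretches that the 2 genes share was not tested.

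**Figure D4:**
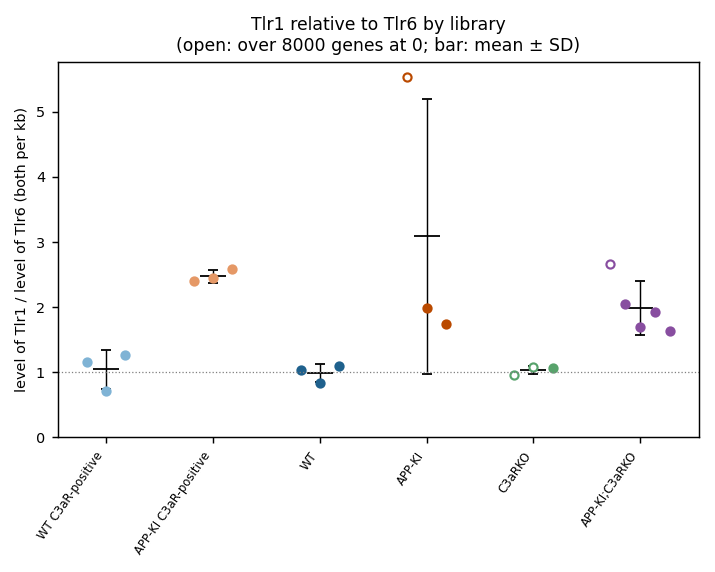
Level of Tlr1 divided by that of Tlr6, both per kb (y axis from 0), in 20 libraries by condition, 1 point per library, with mean ± SD and open points for the 4 libraries with over 8000 genes at 0. The dotted line marks equal levels; libraries without APP-KI lie between 0.706 and 1.26 and those with APP-KI at 1.63 or above.

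The genes most like each member were taken as the 3 with the smallest root mean square difference of log2(scaled value + 1) over the 20 libraries, each gene centred on its mean, among 10128 genes. Ly86 was among the 3 nearest to Cd180, at 0.20, after Eya4 (0.18) and Slc36a4 (0.19), while Echs1, Dpy19l4 and Parvb (each 0.15) were nearest to Ly86. Cx3cr1, the fractalkine receptor of microglia, was among the 3 nearest to Tlr9, at 0.18, after Orai1 and Tnfaip8l2 (each 0.17). Nearest to Tlr4 were Twf2 (0.13), Tab2, a kinase adaptor of the Toll-like receptor pathway (0.17), and Rbm15b (0.18). For Tlr1 they were Ndufv3 (0.23), Cetn2 (0.24) and Relb, a subunit of NF-kappaB (0.25), beside an SD of 0.44 for Tlr1 itself. The members' own SDs ran from 0.36, for Tlr7, to 0.78, for Tlr2, so the word nearest gives a rank only. P2ry6, a nucleotide receptor of microglia, was nearest to Tlr3 (0.16), Adprh to Tlr6 (0.15), Yy1 to Tlr7 (0.17), Ptms to Cd14 (0.18) and Crtap to Tlr2 (0.25). These are descriptions over libraries that share conditions, and the 4 libraries with many genes at 0 weigh in each.

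The rest of the pathway was read from lists of its parts, with the same fits. In C3aR-positive microglia 17 of 62 tested pathway genes rose in APP-KI and 9 fell, beside 13% of all genes higher and 9.71% lower. Of the target genes of the receptors, 7 of the 11 tested rose, among them the chemokines Ccl3 (log2 fold change 2.76, SE 0.23), Ccl5 (2.17, SE 0.50) and Ccl4 (2.00, SE 0.18) and the cytokines Il1b (1.96, SE 0.32) and Tnf (1.10, SE 0.32). Cxcl10 (1.86) and Ptgs2, the cyclooxygenase of prostaglandin synthesis (1.65), rose as well, while the cytokine Il6 fell (-1.44). The list's median was 1.65, against -0.17 for all genes. Of 11 genes whose products carry the endosomal receptors to their place or process them there, 5 rose. These were the lysosomal proteases Ctsl (1.84, SE 0.14), Ctsb (1.82, SE 0.19) and Ctss (0.76, SE 0.20), the lysosomal transporter Slc15a3 (1.37, SE 0.16) and the chaperone Hsp90b1 (0.48, SE 0.12). Another protease, Lgmn, fell (-0.61, SE 0.16), and Unc93b1, which escorts Tlr3, Tlr7 and Tlr9 to endosomes, did not pass the test (-0.40, limma adjusted p = 0.0564). With quantile normalization Unc93b1 was called lower, and with median ratio scaling or edgeR it was not. In all sorted microglia its log2 fold change was -0.66 (limma adjusted p = 0.0982), and without the 4 libraries it was called lower.

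Of 19 adaptors and kinases, 4 fell and 2 rose, beside the same shares of all genes. Those that fell were Myd88 (-0.95, SE 0.16), the adaptor of every Toll-like receptor named here except Tlr3, its bridging adaptor Tirap (-0.90, SE 0.24), the ubiquitin ligase Traf6 (-0.79, SE 0.15) and Tab2 (-0.59, SE 0.11). Ikbke (2.18, SE 0.39), a kinase related to Tbk1, and Irak2 (0.53, SE 0.13) rose. Of 8 transcription factors, the NF-kappaB subunits Nfkb2 (0.60) and Relb (0.61) rose and Rel (-0.67) fell. Of 7 inhibitors, Tnfaip3 (1.00, SE 0.15), the deubiquitinase A20, rose. Of the 6 other Toll-like receptors and co-receptors tested, Tlr5, the flagellin receptor (-1.10, SE 0.21), and the scavenger receptor Cd36 (-1.42, SE 0.43) fell. All these calls are of limma with adjusted p-values of 5.8e-05 to 0.0445. Quantile normalization, median ratio scaling and edgeR kept the direction of all 26 and the call of 20, and Cd36, Hsp90b1, Lgmn, Ctss, Tirap and Il6 lost it in at least 1 of them.

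In all sorted microglia 4 of 63 tested pathway genes rose in APP-KI and 2 fell, beside 2.21% of all genes higher and 1.93% lower. Ccl3 (2.64, SE 0.42), Ikbke (2.27, SE 0.52), Ccl4 (1.76, SE 0.46) and Slc15a3 (1.23, SE 0.20) rose, and Rel (-0.66, SE 0.15) and Pik3ap1, an adaptor to phosphoinositide 3-kinase (-0.60, SE 0.15), fell. With edgeR the call of Ccl4 was lost (adjusted p = 0.0752), and with quantile normalization that of Pik3ap1 (limma adjusted p = 0.0684). In APP-KI;C3aRKO against C3aRKO, 5 rose and 1 fell, beside 3.95% of all genes higher and 2.98% lower. These were Ccl3 (2.97, SE 0.38), Ctsl (1.79, SE 0.30), Ccl4 (1.66, SE 0.41), Ctsb (1.39, SE 0.36) and Slc15a3 (1.22, SE 0.17), and again Rel (-0.90, SE 0.13). Without the 4 libraries the call of Ccl4 was lost there (limma adjusted p = 0.119). In that setting 8 of 62 were higher and 14 lower between APP-KI and WT, beside 13.2% and 14.7% of all genes, with Myd88, Tirap and Tab2 among those lower. Between APP-KI;C3aRKO and C3aRKO 6 were higher and 12 lower, beside 13.2% and 18.2% of all genes. Between C3aRKO and WT and between APP-KI;C3aRKO and APP-KI no pathway gene was called by limma. At an unadjusted p under 0.05 there was 1, Ikbke between C3aRKO and WT, beside 123 genes higher and 221 lower of 12400. Between APP-KI;C3aRKO and APP-KI 38 genes were higher and 109 lower at that level.

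**Figure D5:**
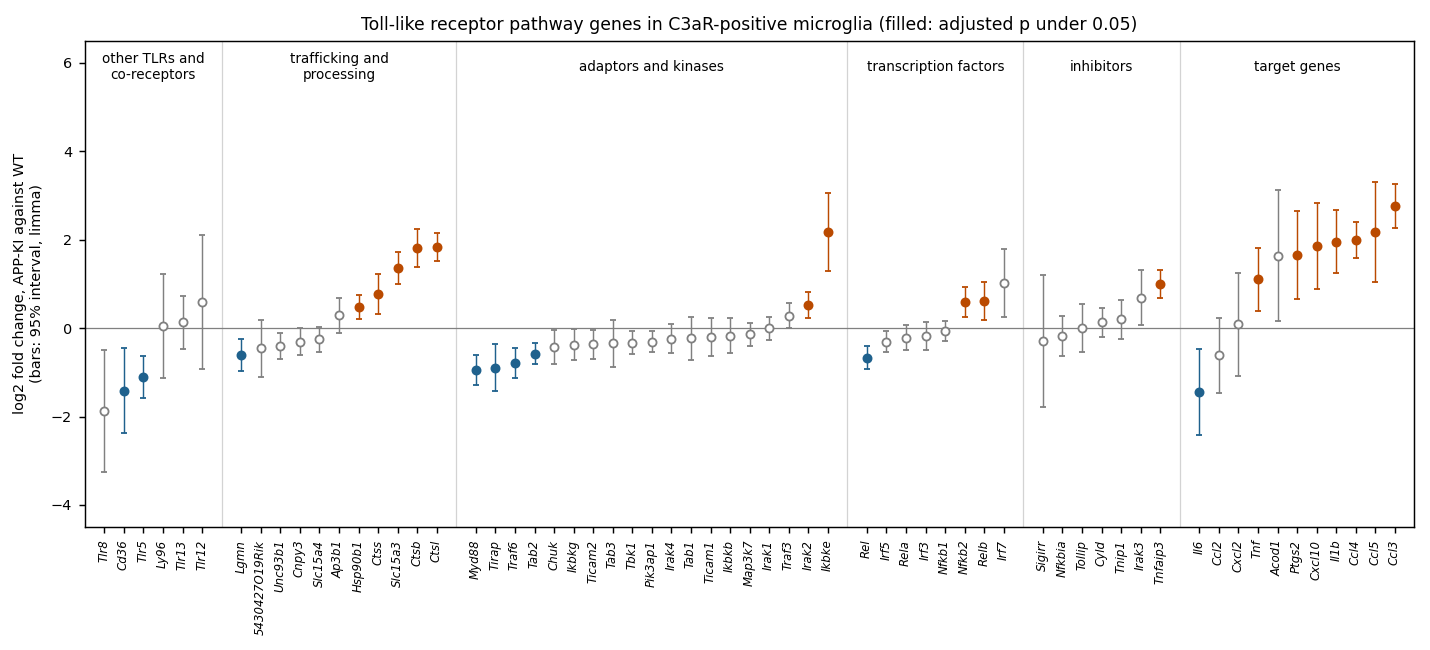
Log2 fold change (y axis) with its 95% interval from limma for APP-KI against WT in C3aR-positive microglia, for the pathway genes tested in 6 lists. Filled points passed the adjusted p-value of 0.05 and grey ones did not; 7 of 11 target genes lie above 0 and are filled, from Tnf at 1.10 to Ccl3 at 2.76.

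In all sorted microglia the border macrophage sum was lower with APP-KI and the endothelial and pericyte sum higher, as in C3aR-positive cells. Border macrophage markers summed to 257 to 277 in APP-KI and 439 to 1184 in WT, and to 190.2 to 348 in APP-KI;C3aRKO and 356 to 591 in C3aRKO. Endothelial and pericyte markers summed to 215 to 292 in APP-KI and 76.6 to 96.1 in WT. They summed to 113 to 291 in APP-KI;C3aRKO and 46.3 to 107 in C3aRKO. Between APP-KI and WT this list was split, with log2 fold changes of 4.26 for Flt1, 1.54 for Cldn5 and 0.76 for Tek. Those of Pecam1 (-1.41), Kdr (-0.12) and Pdgfrb (-0.05) were negative, and only Flt1 passed the limma test. Microglia markers summed to 10402 to 22358 in APP-KI and 27371 to 29420 in WT, so no APP-KI library reached the WT range, and overlapped between APP-KI;C3aRKO, at 8954 to 24597, and C3aRKO, at 15587 to 28032. Astrocyte markers summed to 214 to 338 in APP-KI;C3aRKO and 345 to 390.3 in C3aRKO, without overlap, and overlapped between APP-KI and WT. The sum of the genes raised by warm dissociation was highest of all 20 libraries in APP-KI replicate 4, at 7408, and APP-KI;C3aRKO replicate 1, at 6517, and at 2145 to 5280 in the others. The sums for B and T cells and for monocytes and neutrophils overlapped between the genotypes in both comparisons. Their part in the members' differences was not tested.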

How the data were processed

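RNA of sorted mouse microglia was measured in 20 libraries made with the Takara SMARTer Total RNA Pico v3 kit and sequenced by the authors. Per the labels, cutadapt, TopHat2, featureCounts, DESeq2 and mm10 were used upstream. Whether reads were collapsed by their molecular identifiers, which strand was counted and which annotation was used are not given in the sources used here. The columns carry the name FPKM, but what the authors deposited is a signal, the read count of a gene over the 75th percentile of its library. Every value in all 20 libraries came out as a whole read (100%, tolerance 0.05), so no length was divided out. This was found after the tests were planned, and the tests for normalized values were kept.

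All values were multiplied by 35.2. Genes averaging 1 or more were tested with limma 3.58.1 (R 4.3.3) on the log2 of the scaled value plus a pseudocount of 1, which understates changes of low genes. The fit allowed the variance to follow the mean, and p-values were adjusted by Benjamini and Hochberg's method over the whole table. One fit held the 6 C3aR-positive libraries and another the 14 others with a term for the library number series. The sorts were compared in the 12 libraries of WT and APP-KI without that term. The 10 symbols listed more than once were left out of the tests. Values per kb used the union of exons in GENCODE M21. Alternatives were run for the pseudocount (0.1), the filter (none, or an average of 5 or more), the scaling (quantile, median ratio), the variance trend (none), the tool (edgeR 4.0.16 and DESeq2 1.42.0 on the recovered reads), the threshold (5e-04), a replicate block, no series term, only the groups compared, and each library left out. Leaving out the 4 libraries with over 8000 genes at 0, with or without APP-KI replicate 5, was added after the data were seen. The fits were tested on simulated data.

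The members and lists were chosen with earlier results of these data known. The genes named are every member, the list genes that passed in a comparison, and the 3 genes most like each member by the rule given with them. Ly96 and Unc93b1 were chosen after their values were seen. No pair of libraries of a condition agreed within counting noise (chi-square per degree of freedom of 20.8 to 918). Python 3.11.15, numpy 2.4.6, pandas 2.3.3 and matplotlib 3.10.9 were used for the remaining steps.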

Additional observations from a re-analysis of the deposited data

Results flagged for a closer look

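In APP-KI;C3aRKO, the only condition with more than 3 libraries, replicate 1 lay far below the 4 other libraries for 3 members. Tlr1 was at 16.2 there, Tlr6 at 6.79 and Tlr9 at 67.2 in scaled values. The gap to the nearest library was 0.917, 0.808 and 0.756 of the whole range, above the critical value of 0.71 for 5 samples. Of 10 members tested 3 passed this criterion. For a single test chance passes about 1 in 20, but all 3 flags come from 1 library. The members are therefore not independent trials, and the share of all genes passing was not computed. Replicate 1 is 1 of the 4 libraries with over 8000 genes at 0.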

How the results depend on the processing

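The count of members called for APP-KI against WT in C3aR-positive microglia was 6 or 7 in every alternative except an adjusted p-value under 5e-04, where it was 2. In all sorted microglia the count for the same genotypes was 1. It was 0 without a trend, at 5e-04, without the series term and with only the 2 groups, and 0 to 2 with 1 library left out, where Ly86 lost its call without WT replicate 5 or 6, APP-KI replicate 5 or 6, or APP-KI;C3aRKO replicate 3 or 4. It was 8 without the 4 libraries and 6 without those and APP-KI replicate 5, also by edgeR. For APP-KI;C3aRKO against C3aRKO the count was 3, and it was 1 at 5e-04 and 3 to 5 with 1 library left out (5 without APP-KI;C3aRKO replicate 1). Leaving out the 4 libraries kept 1 C3aRKO library, so counts of that setting are not repeated here. Apart from the shares given further above, the share of all genes called in each alternative is not given. The counts of the alternatives therefore describe the processing and are no result about the members. For C3aRKO against WT DESeq2 called 1. The cause of these changes was not tested. Over all genes in C3aR-positive microglia limma called 1600 higher and 1195 lower, edgeR 1768 and 659, and DESeq2 2223 and 949. Shares of all genes called by edgeR and DESeq2 in the other comparisons are not given here. The shares of limma are therefore no background for their counts. With the replicate number as a block, 6 members were called for APP-KI against WT in C3aR-positive cells, 1 (Tlr4, in place of Ly86) in all sorted cells, 0 for APP-KI;C3aRKO against APP-KI and 1 (Tlr2) for APP-KI;C3aRKO against C3aRKO. Deviations of same-numbered libraries correlated between -0.30 and 0.25, and in no comparison was every pair over 0.1, so the numbers were not read as a pairing. C3aRKO and WT share no numbers. Of single members' values, 1058 kept their direction and side of the threshold, 46 newly passed, 27 no longer passed and 17 changed sign. Where a log2 difference changed sign, it had not passed the threshold with every library. For Tlr7 in C3aR-positive cells it ran from -0.40 to 0.017 (the latter without WT C3aR-positive replicate 2), and in all sorted cells from -0.27 to 0.015 (edgeR 0.041, both without the 4 libraries and APP-KI replicate 5). For Tlr3 in APP-KI;C3aRKO against C3aRKO it was 0.060 without the series term and -0.66 to 0.26 when libraries were left out, above 0 without C3aRKO replicate 3 and, at 0.0039, without APP-KI;C3aRKO replicate 1. For Tlr3 in C3aRKO against WT it was -0.89 to 0.17 when libraries were left out, with 0.17 in both settings without the 4 libraries (edgeR 0.12 in each). For Tlr1 in APP-KI;C3aRKO against APP-KI it was 0.063 with the block, 0.054 (edgeR 0.070) without the 4 libraries, and -0.55 to 0.044 with 1 library left out, above 0 without APP-KI;C3aRKO replicate 1. For APP-KI;C3aRKO against C3aRKO, Tlr4 ran from -0.55 to 0.19 (without C3aRKO replicate 1) and Tlr9 from -0.53 to 0.017 (without APP-KI;C3aRKO replicate 1). For Tlr2 between the sorts in APP-KI it ran from -0.072 (without the 4 libraries and APP-KI replicate 5) to 0.59. The authors' counting could not be repeated from the values.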
